A study of Mus musculus with 6 samples.

Results

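Git2 and its molecular partners were followed across 6 RNA libraries of the embryonic mouse neocortex. The 8 genes were the scaffold gene Git2, its paralog Git1, the PIX exchange factor genes Arhgef6 (alpha-PIX) and Arhgef7 (beta-PIX), the group I p21-activated kinase genes Pak1, Pak2 and Pak3, and the paxillin gene Pxn. They were chosen by name out of 48709 gene rows in the count files, of which 15385 had enough reads to be tested, and all 8 members passed that filter. Git2 was put forward because it had differed between the genotypes in these same libraries, so its genotype difference is a description. Its interval and its place in counts of called genes follow from that choice and support nothing. The 7 partners were chosen for their known roles, with the earlier results in view.

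Each library came from the dissected neocortex of a C57BL/6 embryo at E15.5. The WT group held 3 wild-type embryos. The Rest_het group held 3 embryos of the genotype Rest(+/deltaExon4), with 1 Rest allele lacking exon 4 and 1 intact allele, although the sample titles call them KO. Rest encodes a repressor of neuronal genes, and the mice belong to a study of its regulated splicing. The labels give no treatment, sex or litter, and do not say how the deletion was made, so p-values measure the spread between these embryos only.

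GIT proteins are GTPase-activating proteins for Arf GTPases, the small switches of membrane traffic. They bind PIX proteins, which are exchange factors for the GTPases Rac1 and Cdc42, and the resulting scaffold carries PAK kinases, which Rac1 and Cdc42 activate. Through paxillin the scaffold reaches focal adhesions, and in neurons it is known for roles in dendritic spines, synapses and cell migration. In RNA from whole tissue, fewer cells of a type and less RNA per cell cannot be told apart.

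The libraries held 17835117 to 20753653 reads assigned to genes, with each WT library deeper than each Rest_het library. Rest measured 21.0, 19.7 and 21.1 CPM (read counts scaled to library size) in WT and 16.7, 19.0 and 18.6 CPM in Rest_het, and its edgeR adjusted p was 0.49. A count over the whole gene does not check the deletion of 1 exon. The 9 neocortical marker genes were all detected and summed to 1878 to 2152 CPM in WT and 1716 to 1873 CPM in Rest_het, ranges that did not overlap. Summed markers of endothelial and mural cells covered 204 to 311 CPM in WT, and came to 1524, 1228 and 295 CPM in Rest_het replicates 1, 2 and 3. Most of each sum was 1 marker, Rgs5, named after its values were seen. Rgs5 measured 216, 152 and 181 CPM in WT and 1432, 1161 and 196 CPM in Rest_het. The highest of the other markers in this list, Cldn5, measured 45.5, 23.0 and 35.8 CPM in WT and 52.2, 38.0 and 47.6 CPM in Rest_het. Summed markers of choroid plexus and cortical hem covered 2.95 to 57.7 CPM in WT and 7.98 to 373 CPM in Rest_het. Most of each of these sums was Ttr, also named after its values were seen. Ttr measured 53.0, 2.27 and 3.09 CPM in WT and 169, 5.49 and 357 CPM in Rest_het. Summed markers of ventral telencephalon covered 152 to 217 and 169 to 309 CPM. Those of thalamus and hypothalamus covered 123 to 221 and 118 to 224 CPM. Meningeal fibroblast markers covered 95.7 to 242 and 94.9 to 266 CPM, microglial markers 28.6 to 34.2 and 26.2 to 33.9 CPM, and erythroid markers 275 to 346 and 167 to 356 CPM. In these 7 lists of other cell types the ranges of the groups overlapped, no listed marker was at 0 in every library, and the part of any of them in the results below was not tested. Reads of a Cre-ERT2 sequence occurred in the Rest_het libraries alone and reads of LacZ in the WT libraries alone, so the groups also differed in these sequences, and the labels do not say whether they belong to the Rest allele.

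Git2 lies on the minus strand of chromosome 5 (ENSMUSG00000041890, 114727407 to 114775517 in GRCm38). The annotation gives it 17 transcripts, 10 of them coding. It shares 841 bases at its 5′ end with Ankrd13a, which encodes an ankyrin-repeat protein and runs the other way. The RefSeq start sites of Git2, at 114773491 and 114773492, lie outside the shared bases. By RefSeq on GRCm38.p6 the start sites of the neighbours lie 1456 bases apart. The windows from 250 bases before to 50 bases after a start site are shown for Git2, for Ankrd13a and for the paralog Git1, because Git2 and Ankrd13a were both higher in every Rest_het library and Git1 was not. They are written 5′ to 3′ on the gene's own strand, and capitals mark matches to the 4 motifs that were searched.

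Git2, chr5:114773443-114773742, minus strand: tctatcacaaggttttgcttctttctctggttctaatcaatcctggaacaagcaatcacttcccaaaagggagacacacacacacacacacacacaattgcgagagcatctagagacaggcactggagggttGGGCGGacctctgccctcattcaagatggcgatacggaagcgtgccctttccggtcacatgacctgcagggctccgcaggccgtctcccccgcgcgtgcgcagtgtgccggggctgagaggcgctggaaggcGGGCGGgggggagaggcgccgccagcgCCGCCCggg

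Ankrd13a, chr5:114774698-114774997, plus strand: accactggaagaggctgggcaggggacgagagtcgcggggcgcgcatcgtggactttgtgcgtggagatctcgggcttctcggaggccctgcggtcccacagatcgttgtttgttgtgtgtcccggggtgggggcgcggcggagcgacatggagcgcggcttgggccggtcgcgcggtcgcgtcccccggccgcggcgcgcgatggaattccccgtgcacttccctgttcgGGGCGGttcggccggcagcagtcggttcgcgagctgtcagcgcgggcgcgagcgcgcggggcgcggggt

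Git1, chr11:77493038-77493337, plus strand: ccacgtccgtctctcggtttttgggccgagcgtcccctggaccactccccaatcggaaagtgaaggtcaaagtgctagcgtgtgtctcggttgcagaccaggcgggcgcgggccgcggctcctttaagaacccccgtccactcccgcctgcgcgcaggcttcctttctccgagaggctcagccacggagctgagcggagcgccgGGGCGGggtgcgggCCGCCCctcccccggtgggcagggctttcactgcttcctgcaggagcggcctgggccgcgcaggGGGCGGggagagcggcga

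The motifs were the left and right parts of the RE1 element bound by REST, TTCAGCACC and GGACAG, the cyclic AMP response element TGACGTCA and the GC box GGGCGG. Each was searched on both strands. Of the 8 genes 6 had an entry, with 14 windows in all. TTCAGCACC was in 0 of the 14 windows and in 0.371% of 32851 windows of this length over all genes. GGACAG was in 1 window, the first one of Pak1, against 22.2% of all windows. TGACGTCA was in 2 windows, 1 of Pak1 and 1 of Arhgef7, against 1.79% of all. GGGCGG was in 8 windows, both Git2 windows among them, against 35.7% of all. The Git2 windows start at 114773442 and 114773443 and so are nearly the same sequence. The Git1 windows also overlap, so the 8 are not separate promoters. In the Git2 window shown it is the only one of the 4 motifs that matches, at 3 places, and the 61.3% of G and C there compares with 70.7% for Git1 and 72.7% for Ankrd13a. These matches describe letters in the reference, not binding.

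Git2 was the member that stood apart between the genotypes. It measured 67.7, 53.0 and 53.7 CPM in the 3 WT libraries and 193, 196 and 205 CPM in the 3 Rest_het libraries. Every Rest_het value lay far above every WT value, and the Rest_het libraries were also closer to each other, with a coefficient of variation of 3.18% against 14.3% in WT. In reads the counts were 1417, 1004 and 1043 in WT and 3572, 3540 and 3863 in Rest_het, so each value rests on at least 1004 reads. The mean was 58.1 ± 8.32 CPM in WT and 198 ± 6.31 CPM in Rest_het (SD, n = 3). On the log2 scale the difference was 1.77 (SE 0.11), or 3.41-fold with a 95% interval from 2.85 to 4.07. With WT replicate 1, the highest of the WT libraries, left out, the log2 difference was 1.89. In Rest_het replicates 1, 2 and 3, where Git2 was at 193, 196 and 205 CPM, the endothelial and mural marker sums were 1524, 1228 and 295 CPM. Of these sums, Rgs5 alone made up 1432, 1161 and 196 CPM.

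The overlap with Ankrd13a left no reads ambiguous between Git2 and Ankrd13a in these counts. A read pair in exons shared by genes of opposite strands is ambiguous in the unstranded count and can be assigned in a count that uses strand. For Git2 the counts on each strand summed to the unstranded count in 6 of 6 libraries, and so did those for Ankrd13a. A second overlapping gene, the non-coding 4930515G01Rik, had 6 to 16 reads in any library. It overlaps Git2 by 1247 bases on the same strand, so the strand counts cannot show whether reads were lost there. The libraries keep no strand, so antisense reads within Git2 exons would be counted as Git2, and those within Ankrd13a exons as Ankrd13a. The counts do not say which of the Git2 transcripts the reads came from.

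**Figure D1:**
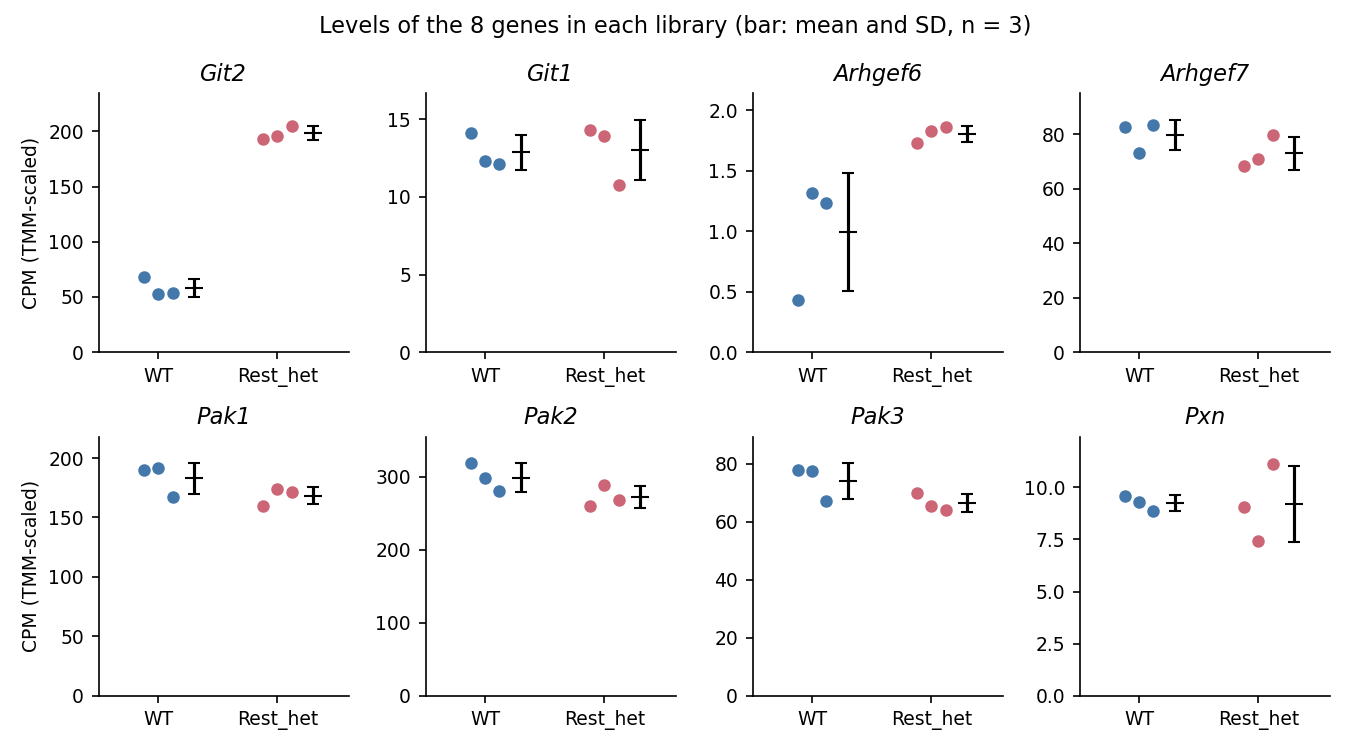
CPM of the 8 genes (vertical axes, each from 0) in 3 WT and 3 Rest_het libraries (points), with the mean and SD of each group as a bar. Git2 sits at 53.0 to 67.7 CPM in WT and at 193 to 205 CPM in Rest_het; of the partners, Arhgef6 alone shows groups that do not overlap.

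Git1, the other GIT scaffold gene (ENSMUSG00000011877, chromosome 11, 77493562 to 77507786, plus strand), did not pass the test. It measured 14.1, 12.3 and 12.1 CPM in WT and 14.3, 13.9 and 10.8 CPM in Rest_het, and the groups overlapped. Its log2 fold change was 0.015 (SE 0.15), its edgeR adjusted p was 0.98, and the 95% interval of the fold ran from 0.80 to 1.28. The sign of so small a value turned with the scaling: with upper-quartile factors it was -0.0053.

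The make-up of the GIT pair differed between the groups. Not scaled to length, the ratio of Git2 to Git1 CPM was 4.79, 4.29 and 4.44 in WT and 13.5, 14.1 and 19.0 in Rest_het. Scaled by the length of the longest coding transcript, 5032 bases for Git2 and 3512 for Git1, Git2 supplied 75.8 ± 1.02% of GIT transcripts in WT and 91.4 ± 1.41% in Rest_het (SD, n = 3). The highest WT share was 77.0% and the lowest Rest_het share 90.4%. With the length of all annotated exons instead, a choice added after seeing the data, the Git2 share was 55.6 ± 1.38% in WT and 80.9 ± 2.79% in Rest_het (SD, n = 3), and the share of Git1 was 44.4% and 19.1% where it had been 24.2% and 8.61%. The size of these shares therefore depends on the length used, and the higher Git2 share in Rest_het is seen with both. Since Git1 differed by less than its spread, these ratios restate the difference of Git2.

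The PIX genes, whose proteins load Rac1 and Cdc42 with GTP, were represented mainly by Arhgef7, which per length supplied 98.7 ± 0.70% of PIX transcripts in WT and 97.4 ± 0.13% in Rest_het (SD, n = 3). Arhgef7 (ENSMUSG00000031511, chromosome 8, 11727721 to 11835219, plus strand) measured 82.4, 73.2 and 83.5 CPM in WT and 68.3, 70.9 and 79.6 CPM in Rest_het. The groups overlapped, and the log2 fold change was -0.13 (SE 0.095), where the edgeR adjusted p was 0.61. The 95% interval of the fold ran from 0.79 to 1.06.

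Arhgef6 (ENSMUSG00000031133, chromosome X, 57231485 to 57338729, minus strand) was close to the lower limit of what these libraries resolve. It had 9, 25 and 24 reads in WT and 32, 33 and 35 in Rest_het, or 0.43, 1.32 and 1.24 against 1.73, 1.83 and 1.86 CPM. All Rest_het values lay above all WT values, with WT replicate 1 the lowest of the 6. The log2 fold change was 0.86 (SE 0.41) and the edgeR adjusted p 0.45, so the gene did not pass, and the interval of the fold from 0.95 to 3.48 includes no difference. Without WT replicate 1 the log2 fold change was 0.50. Arhgef6 lies on the X chromosome, and Xist reads were present in WT replicate 2 and Rest_het replicate 3 and at 0 or 1 in the other libraries. Those carriers of Xist had the highest Arhgef6 value of their groups, by 25 reads to 24 in WT and 35 to 33 in Rest_het. The other X-linked member, Pak3, did not share this order. It measured 77.5 CPM in WT replicate 2 against 77.7 in WT replicate 1. In Rest_het replicate 3 it measured 64.0 CPM, the lowest of its group.

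The ratio of the scaffold to its main PIX partner also differed between the groups. Not scaled to length, the ratio of Git2 to Arhgef7 CPM was 0.82, 0.72 and 0.64 in WT and 2.83, 2.77 and 2.58 in Rest_het. Arhgef7 overlapped between the groups and did not pass the test, with a log2 fold change of -0.13 against 1.77 for Git2. This ratio therefore mostly restates the difference of Git2, which was chosen for it.

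The group I PAK genes encode the kinases that GIT-PIX scaffolds carry, and per length Pak1 and Pak2 were the most abundant members. Pak2, the widely expressed form (ENSMUSG00000022781, chromosome 16, 32016290 to 32079342, minus strand), measured 319, 297 and 280 CPM in WT and 260, 289 and 268 CPM in Rest_het. Its log2 fold change was -0.13 (SE 0.083), where the edgeR adjusted p was 0.54. Pak1, abundant in brain (ENSMUSG00000030774, chromosome 7, 97788541 to 97912381, plus strand), measured 189.7, 191 and 168 CPM in WT and 160.0, 174 and 171 CPM in Rest_het, for a log2 fold change of -0.12 (SE 0.084, edgeR adjusted p 0.59). Pak3, the X-linked neuronal form (ENSMUSG00000031284, chromosome X, 143518591 to 143797796, plus strand), measured 77.7, 77.5 and 67.0 CPM in WT and 69.9, 65.5 and 64.0 CPM in Rest_het, for a log2 fold change of -0.16 (SE 0.091, edgeR adjusted p 0.52).

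All 3 PAK genes had slightly lower means in Rest_het, overlapped between the groups and did not pass the test. The lower bounds of their 95% intervals were 0.80-fold for Pak2, 0.81-fold for Pak1 and 0.78-fold for Pak3, and the upper bounds 1.04, 1.05 and 1.04. Their sum was 586, 566 and 514 CPM in WT and 489.9, 528 and 503 CPM in Rest_het. Their proportions differed by less than the spread between libraries. Per length, Pak1 made up 49.6 ± 0.93% of the trio in WT and 49.9 ± 0.80% in Rest_het, Pak2 43.3 ± 1.06% and 43.1 ± 0.76%, and Pak3 7.11 ± 0.15% and 6.99 ± 0.57% (SD, n = 3).

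Pxn (ENSMUSG00000029528, chromosome 5, 115506676 to 115555987, plus strand) encodes paxillin, the adapter of focal adhesions that binds GIT proteins. It is the member nearest to Git2 in the genome, with its start 0.73 Mb away on chromosome 5. It measured 9.61, 9.28 and 8.86 CPM in WT and 9.08, 7.43 and 11.1 CPM in Rest_het. The Rest_het libraries spread wider, from below the lowest to above the highest WT value. Its log2 fold change was -0.0068 (SE 0.17) and its edgeR adjusted p 0.99, with a 95% interval of the fold from 0.76 to 1.30.

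**Figure D2:**
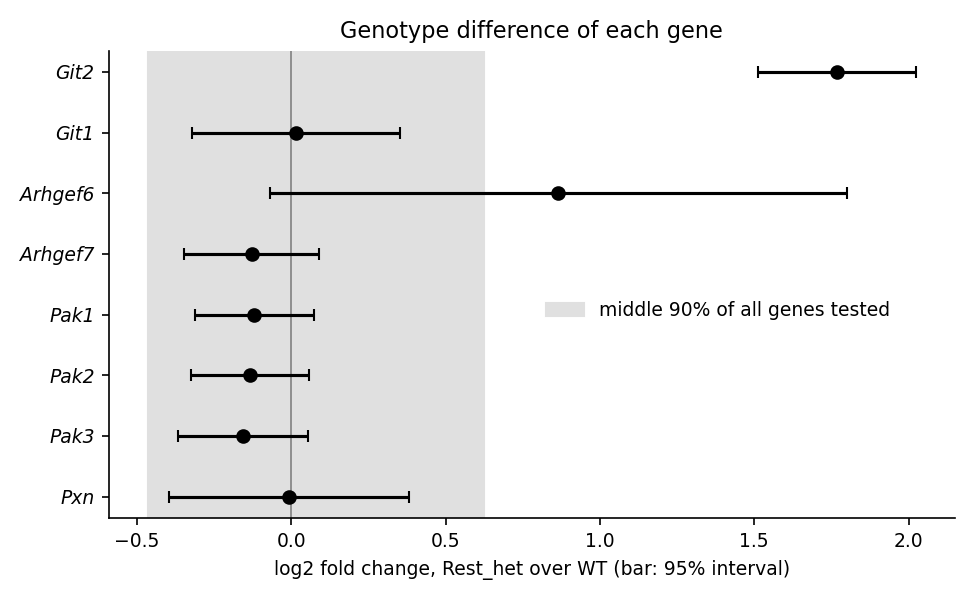
Log2 fold change of each gene in Rest_het over WT (points) with its 95% interval (bars), over the middle 90% of the 15385 tested genes (grey, -0.47 to 0.62). The interval of Git2 lies from 1.51 to 2.02, and the intervals of all 7 partners include 0.

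Over all genes tested, edgeR called 19, or 0.123%, at an adjusted p under 0.05, with 0.065% higher and 0.0585% lower in Rest_het. Of the 8 members 1 was called, Git2, which was chosen for that difference, so nothing is read from its call. EdgeR, DESeq2 and limma-voom each called 0 of the 7 partners. None of the partners reached an unadjusted edgeR p under 0.05 either, where 11.7% of all genes did. The groups did not overlap for 2 of the members, Git2 and Arhgef6, both higher in Rest_het, as for 19.3% of all genes in either direction and 10.4% in that direction (8.94% in the other). Of the tested genes, 50 had a higher log2 fold change than Git2.

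Levels can be set beside each other between genes only per length. In WT, in CPM per kb of the longest coding transcript, the order was Pak1 at 59.7 ± 4.34, Pak2 at 52.0 ± 3.43, Arhgef7 at 16.2 ± 1.15, Git2 at 11.6 ± 1.65, Pak3 at 8.56 ± 0.71, Git1 at 3.66 ± 0.32, Pxn at 2.496 ± 0.10 and Arhgef6 at 0.22 ± 0.11 (SD, n = 3). Pak1 and Pak2 were not apart beyond their spread, since the lowest Pak1 value of 54.7 lay under the highest Pak2 value of 55.5. The other neighbours in this order did not overlap across the WT libraries. In Rest_het Git2 moved up to the third place, at 39.4 ± 1.25 CPM per kb (SD, n = 3), above Arhgef7 at 14.8 ± 1.20 and below Pak2 at 47.4 ± 2.59, and its highest value of 40.8 stayed under the lowest of Pak2, 45.3. The order of the other genes was the same in both groups. With the length of all annotated exons instead, 17362 bases for Git2, Git2 stood at 3.35 CPM per kb in WT, below Pak3 at 7.76 and Arhgef7 at 5.06, and at 11.4 in Rest_het, above Pak3 at 6.96 and Arhgef7 at 4.63.

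**Figure D3:**
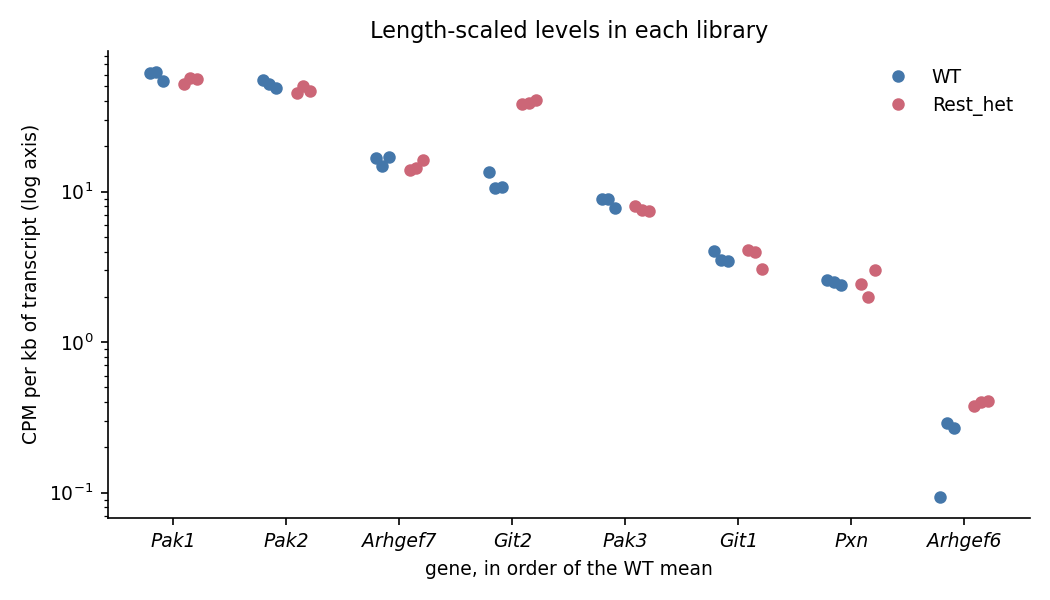
CPM per kb of the longest coding transcript (log axis) for each gene in 3 WT and 3 Rest_het libraries (points), in order of the WT mean. Git2 moves from 10.5 to 13.5 in WT to 38.4 to 40.8 in Rest_het, between Pak2 and Arhgef7, while the other genes keep their order among themselves.

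The genes around Git2 on chromosome 5 were looked at next, as position played no part in the choice of partners. Within 1 Mb of its start, 49 other genes were tested. EdgeR called 0 of them, limma-voom 0 and DESeq2 1, Ankrd13a, while 11 reached an unadjusted edgeR p under 0.05, 9 higher and 2 lower. That is 22.4% of the neighbours, against 11.7% of all genes. Of the 49, 35 lay above 0, or 71.4% against 50.9% of all genes, with a median log2 fold change of 0.14 against 0.0054. In 12 the groups did not overlap, 11 with Rest_het above and 1 with it below, or 24.5% against the 19.3% of all genes. The split into higher and lower depended on the window. Within 2 Mb, 68 genes were tested and 17, or 25%, reached an unadjusted edgeR p under 0.05, 10 higher and 7 lower. Of the 68, 64.7% lay above 0, and the median log2 fold change was 0.089. The groups did not overlap in 25% of them, 11 with Rest_het above and 6 with it below.

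Ankrd13a, which starts beside Git2 and faces away from it, measured 8.12, 8.33 and 7.78 CPM in WT and 11.8, 15.6 and 14.98 CPM in Rest_het. Its groups did not overlap, and its log2 fold change was 0.81 (SE 0.14). Its edgeR adjusted p was 0.17 and its DESeq2 adjusted p 0.0041, so the call depended on the tool. Its 95% interval on the log2 scale ran from 0.48 to 1.14.

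The next genes on each side had smaller values. Tchp, which encodes a keratin-binding protein and lies past the 3′ end of Git2, measured 4.01, 4.85 and 5.87 CPM in WT and 6.76, 8.81 and 5.52 CPM in Rest_het, with overlap and an edgeR adjusted p of 0.43. On the other side 1500011B03Rik measured 12.1, 19.4 and 16.4 CPM in WT and 21.9, 24.2 and 17.7 CPM in Rest_het, with overlap and an edgeR adjusted p of 0.44. The highest log2 fold change among the 49, 1.16 (SE 0.29), belonged to Ung, a uracil-DNA glycosylase gene singled out after the values were seen. It had 1.82, 2.80 and 2.32 CPM in WT and 5.62, 6.43 and 3.40 CPM in Rest_het, with an edgeR adjusted p of 0.32.

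The nearest gene called by edgeR was Mn1, a transcriptional co-regulator gene 3.36 Mb away, with 12965, 12458 and 11945 CPM in WT and 7098, 8006 and 7529 CPM in Rest_het, a change opposite to that of Git2. Mn1 and the other 4 called genes of the chromosome were named after their values were seen. The 4 were Gm15446 at 4.85 Mb and Tgfbr3 at 7.49 Mb on the same side as Mn1, and Gm42980 at 12.8 Mb and Zkscan1 at 23.3 Mb on the other. Tgfbr3 and Gm42980 were higher in Rest_het, like Git2, and Gm15446 and Zkscan1 lower. With Git2, which was chosen for its difference, edgeR called 6 of 1104 genes tested on chromosome 5, or 0.54%, against 0.123% of all genes. Rest itself lies 37.5 Mb from Git2.

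**Figure D4:**
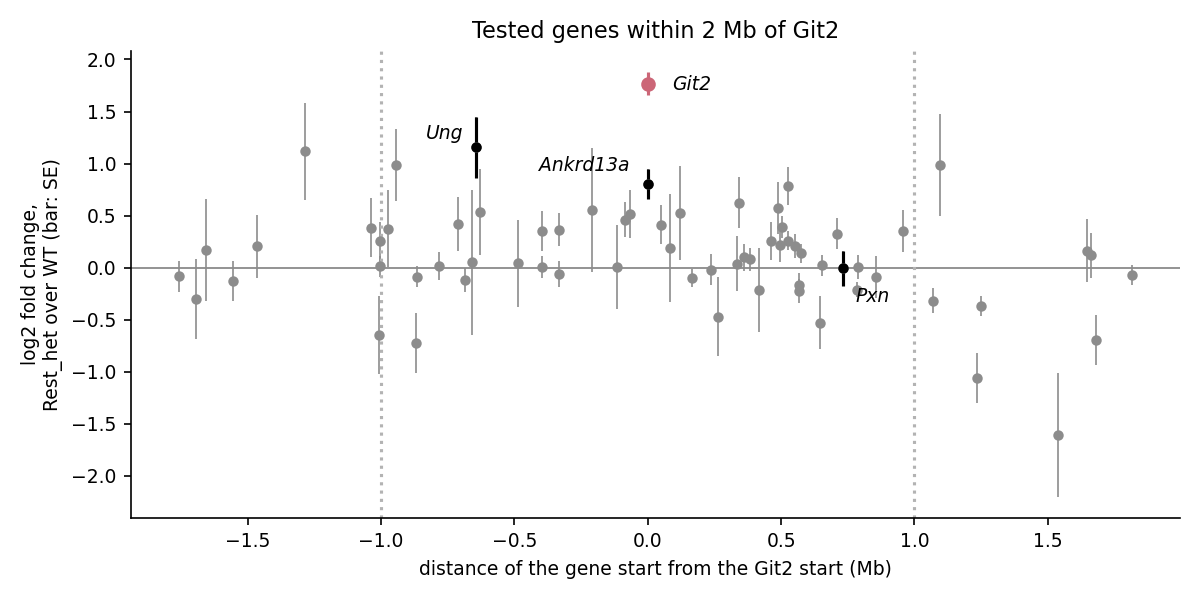
Log2 fold change with its SE for the tested genes within 2 Mb of Git2 (vertical axis) by the distance of their start from the Git2 start in Mb (horizontal axis), with dotted lines at 1 Mb. Git2 at 1.77 lies above all 68 neighbours, whose highest value is 1.16, and Pxn lies at -0.0068.

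The wider pathway was followed in 6 lists of 105 genes, of which 99 were tested. The symbol Pdxp was not matched in the annotation, and Acap1, Psd4, Ssh3, Lpxn and Ilk had too few reads. EdgeR called 0 of the 99, and 16, or 16.2%, reached an unadjusted p under 0.05, 13 higher and 3 lower, against 11.7% of all genes. DESeq2 called 2, Limk1 and Rac3, and limma-voom 0. The median log2 fold change was 0.024, with 54 genes above 0 and 45 below.

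Among the 20 other ArfGAP genes tested, which share the ArfGAP domain of GIT proteins, 10 lay above 0 and 10 below, with a median of -0.00021, and 0 were called. Agfg1, a protein with an ArfGAP domain and nucleoporin-like repeats, had a log2 fold change of 0.42 (SE 0.10, edgeR adjusted p 0.32), and Acap3 0.41 (SE 0.14, 0.36). The 19 Arf GTPases and exchange factors had 7 above 0 and 12 below, with a median of -0.081 and 0 called. Cyth3, an exchange factor of the cytohesin family, measured 17.3, 19.0 and 19.2 CPM in WT and 29.3, 24.3 and 23.9 CPM in Rest_het, with an edgeR adjusted p of 0.32. Iqsec3, an Arf exchange factor of inhibitory synapses, measured 2.20, 2.22 and 2.42 CPM in WT and 1.08, 1.27 and 0.797 CPM in Rest_het, with an edgeR adjusted p of 0.32.

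Of the 14 genes for Rac and Cdc42 GTPases and PAK regulators, 7 lay above 0 and 7 below, with a median of 0.049 and 0 called. Rac3, a neuronal Rac GTPase, measured 4.11, 7.70 and 10.97 CPM in WT and 25.1, 26.3 and 12.5 CPM in Rest_het. Its groups did not overlap, but the highest WT and the lowest Rest_het library were close, and its edgeR adjusted p was 0.32. Rac1, the GTPase loaded by PIX proteins, measured 8.17, 7.33 and 9.99 CPM in WT and 14.0, 15.02 and 9.35 CPM in Rest_het, with overlap and an edgeR adjusted p of 0.37. Its log2 fold change of 0.59 was 0.13 when the counts of both strands were summed, so the unstranded count of Rac1 leaves out reads and its level is uncertain. Rac3 and Rac1 were both highest in Rest_het replicates 1 and 2, where the endothelial and mural marker sums were 1524 and 1228 CPM. Those sums were mostly Rgs5, at 1432 and 1161 CPM. Within Rest_het, Kdr, Pecam1, Cdh5 and Pdgfrb of the same list were highest in replicate 3, and Cldn5 in replicate 1. The part of cell content in the Rac3 and Rac1 values was not tested.

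The 12 genes of the group II PAKs and the LIMK-cofilin branch, which controls actin turnover downstream of PAK kinases, had 8 above 0 and 4 below, with a median of 0.088 and 0 called. Limk1, the LIM kinase that PAK1 phosphorylates, measured 3.87, 5.54 and 7.36 CPM in WT and 18.6, 15.6 and 12.0 CPM in Rest_het, the smallest unadjusted p of the 99. The lowest Rest_het value was again in replicate 3. Its log2 fold change was 1.46 (SE 0.25), its edgeR adjusted p 0.17 and its DESeq2 adjusted p 1.9e-05. Limk1 too lies on chromosome 5, 19.9 Mb from Git2. Pak6, a group II kinase, had a log2 fold change of 0.64 (SE 0.20, edgeR adjusted p 0.36).

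The 21 genes of the paxillin family and focal adhesions had 16 above 0 and 5 below, with a median of 0.14 and 0 called. Zyx, which encodes the adhesion protein zyxin, had a log2 fold change of 0.56 (SE 0.14, edgeR adjusted p 0.32), and Vasp, an actin-filament elongation factor, 0.73 (SE 0.21, 0.35). The 13 scaffolds and receptor kinases that bind GIT or PIX proteins or led to their discovery had 6 above 0 and 7 below, with a median of -0.00081 and 0 called. Ppfia1, a liprin, had a log2 fold change of -0.31 (SE 0.097, edgeR adjusted p 0.36), and Pclo, the active-zone protein piccolo, -0.28 (SE 0.11, 0.41). Of the 11 tested pathway genes on chromosome 5, 5 lay above 0 and 6 below, with a median of -0.017. Of these, 4 had an unadjusted edgeR p under 0.05, with Limk1, Cyth3 and Rac1 higher and Pclo lower, against 12 of the 88 elsewhere and 11.7% of all genes. Rac1 counts here at its uncertain unstranded value, and its edgeR adjusted p was 0.66 with the counts of both strands summed.

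**Figure D5:**
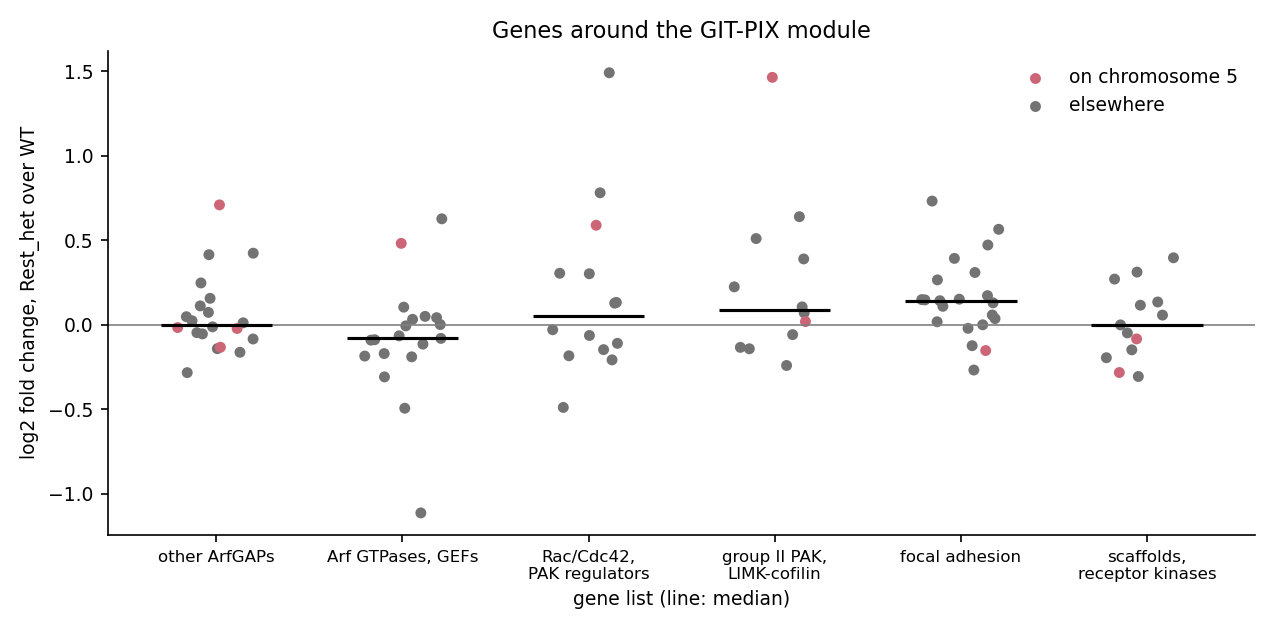
Log2 fold change in Rest_het over WT (vertical axis) of the 99 tested genes of 6 lists around the GIT-PIX module (points), with genes on chromosome 5 in red and the median of each list as a line. The medians lie between -0.081 and 0.14, and Rac3 at 1.49 and Limk1 at 1.46 are the highest.

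The genes with the profile most like that of Git2 were sought over the 6 libraries, by the root mean square difference between log2 CPM profiles after each gene's mean was subtracted. The nearest 5 were Gm15122 at 0.24, Cfap44 at 0.24, Traf3ip1 at 0.25, Relb at 0.26 and Stac at 0.27. Traf3ip1, a gene of ciliary transport on chromosome 1, measured 15.7, 19.4 and 20.9 CPM in WT and 65.1, 74.8 and 65.4 CPM in Rest_het. Of the other 4, each had at most 21 reads in any library and an edgeR adjusted p of 0.32, so their likeness rests on few reads. None of the 7 partners was among the 5. The measure includes the genotype difference for which Git2 was chosen, so this follows from the partners' smaller log2 fold changes and is no separate result.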

How the data were processed

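The authors deposited 1 file of whole-number read counts per gene for each of the 6 libraries, and the submitters' processing notes name STAR 2.5.2a and the build GRCm38.p4. The unstranded counts were used. Per the labels' protocols, oligo dT priming, template switching and Nextera XT tagmentation made libraries that keep no strand and hold no molecular identifiers, so PCR copies count as reads and intervals do not cover amplification. A table of values scaled by the authors with DESeq2 was not used here. Rows naming no gene, 99 spike-in and 15 transgene sequences were left out of the library sizes and of every test. Of all read pairs, 21.4 to 26.9% fell in no gene, 6.29 to 7.48% mapped to several places, 2.54 to 2.85% were ambiguous and 1.21 to 1.45% unmapped.

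Names, positions and lengths came from GENCODE M21 (GRCm38), and promoter sequences from RefSeq on GRCm38.p6. Genes passed filterByExpr (count minimum 10, total 15) and were fitted with edgeR 4.0.16 in R 4.3.3 by its quasi-likelihood test on genotype alone, with TMM scaling and Benjamini-Hochberg adjustment over all 15385 genes. A gene was called at an adjusted p under 0.05. CPM were computed with TMM-scaled library sizes. The SE was derived from each gene's log2 fold change and the square root of its F, and 95% intervals use the fit's degrees of freedom. DESeq2 1.42.0 and limma-voom (limma 3.58.1) were alternatives. On simulated counts for this comparison, with 15372 genes tested, edgeR recovered 18% of the 50 genes changed 1.5-fold, 68% of those changed 2-fold, 86% of those changed 3-fold and 96% of those changed 4-fold. It made 7 false calls. Each simulated gene was given the spread usual for its level and none of its own, and changes were placed only in genes above a minimum level. The shares recovered may therefore not hold for the real genes. Figures used matplotlib 3.10.9.

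The members and lists were chosen with earlier results of these data known. The text names the 8 members, Rest, genes that overlap Git2 or lie next to it, called genes within 1 Mb, the called genes and the 2 smallest p-values of each list, and the 5 profiles most like Git2. Genes outside that rule are marked.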

Additional observations from a re-analysis of the deposited data

Results flagged for a closer look

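A signal lay outside the gene counts, in sequences that no comparison used. Reads of a Cre-ERT2 sequence numbered 10, 16 and 17 in the Rest_het libraries, 43 in all, and 0 in each WT library, where 3 reads is the limit that a count of 0 allows. Reads of LacZ went the other way, with 27, 51 and 43 in WT and 0 in each Rest_het library. Both splits follow the groups that differ in Git2, and their part in that difference cannot be told apart from genotype here.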

How the results depend on the processing

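Git2, chosen for its difference in these libraries, had log2 differences from 1.71 to 1.89 over 15 alternatives, which describe the processing and test nothing. The 7 partners were not called under any of them. The count over all genes was 127 by the DESeq2 test, 107 with no filter and 6 with the replicate number as a block, and 12 to 35 with 1 library left out (12 without WT replicate 1, 35 without WT replicate 2, 32 without Rest_het replicate 3). Called pathway genes were 2 by the DESeq2 test and 2 with no filter (Rac3 and Limk1), and called neighbours of Git2 were 1 by each of these, Ankrd13a. The sign of Git1 turned with upper-quartile factors (-0.0053) and that of Git1 and Pxn with single libraries left out, where they ran from -0.062 to 0.14 and from -0.16 to 0.13. The other 27 of 29 named genes kept their sign throughout. Same-numbered libraries had correlations of 0.016, 0.027 and -0.15 in their deviations from the group means, so the replicate numbers were not taken to pair them, and with the block no partner was called. Depth limits Arhgef6, with 58 reads in the 3 WT libraries together, most.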
